A study of Mus musculus with 14 samples.

Results

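The transcripts of chemokines and their receptors were compared between thymic lymphomas of 2 mouse models. Members were all genes whose symbol on the array is Ccl, Cxcl, Ccr or Cxcr with a number, together with Xcl1, Xcr1, Cx3cl1 and Cx3cr1. The rule found 48 genes, 33 ligands and 15 receptors, among the 15803 genes measured, and itself used no measured value. Members and lists were, however, chosen with earlier results of these data known. The 48 genes were covered by 218 probe sets (groups of probes that mostly lie in 1 exon), between 1 and 11 per gene. Tumours came from 7 samples labelled Vav-SB and 7 labelled CD4-SB, all 14 of them thymic lymphomas with active Sleeping Beauty transposition, a transposon that mutates genes where it lands. The Vav promoter is active in blood-forming cells in general, and the Cd4 promoter in developing and mature T cells. The sources used here give no age, sex or further alleles of the mice, and no normal thymus was measured. CD4-SB replicates 1 and 2 share the first number of their titles, as do replicates 5, 6 and 7, and the labels do not say which tumours came from separate mice. The p-values therefore measure the spread between these tumours.

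Chemokines are small secreted proteins that bind receptors with a G protein partner and draw cells along their gradients. In the thymus, Ccl25 acts through Ccr9 and Cxcl12 through Cxcr4 on immature thymocytes, while Ccr7 guides later stages toward the medulla. In a tumour, ligands can be made by the malignant T cells or by macrophages, dendritic cells and stroma among them. In bulk RNA, fewer cells of a type and less RNA per cell cannot be told apart.

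Each gene's level is the mean log2 value of its probe sets, and a difference of 1 on this scale is a doubling. Differences are given as Vav-SB minus CD4-SB, tested with limma and adjusted over all 15803 genes, with calls at adjusted p under 0.05. Levels are not set against each other between genes, since probes differ in brightness. Genes for olfactory receptors, which thymic tumours are not known to use, gave a reference for dim signal: the 95th percentile of their mean levels was 6.90 over 828 genes. 14 of the 48 members lay below it in both models, among them Ccr3, Ccr4 and Cxcr5, so their differences sit near background.

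The mean level of T lineage markers was well above that reference in every tumour, though 1 of them, Cd28, was at 5.68 in CD4-SB replicate 2. The mean of 9 measured T lineage genes was 10.66 ± 0.15 (SD, n = 7) in Vav-SB and 10.10 ± 0.46 (SD, n = 7) in CD4-SB (exact permutation test, two-sided, p = 0.00175), and 2 of the 9 were called, both higher in Vav-SB. Markers of host cells (myeloid, neutrophil, dendritic, B, stromal and epithelial) averaged 7.47 ± 0.22 (SD, n = 7) in Vav-SB and 7.99 ± 0.35 (SD, n = 7) in CD4-SB over 54 measured genes (exact permutation test, two-sided, p = 0.00874, 0.0262 after Benjamini-Hochberg adjustment over 9 marker tests). Tumours ranged from 7.26 to 7.86 in Vav-SB and from 7.47 to 8.40 in CD4-SB, and 11 of the 54 markers were dim. The host cell lists were not alike. The 13 myeloid markers differed most, with means of 8.09 (Vav-SB) and 8.87 (CD4-SB) and with all 13 higher in the mean of CD4-SB and 6 called. Dendritic and B markers differed by -0.76 and -0.73, with all 11 and all 6 higher in CD4-SB, and 2 and 0 of them were called. Their adjusted p was 0.0393 and 0.0787 by the same permutation test. The B marker mean ranged from 6.23 to 8.28 in the CD4-SB tumours and from 6.17 to 6.79 in Vav-SB. Stromal and endothelial markers differed by -0.35 (8 of 11 higher in CD4-SB), and Pecam1 among them was called higher in Vav-SB. Neutrophil and thymic epithelial markers differed by -0.07 and -0.12 (4 of 6 and 2 of 7 higher in CD4-SB). All 4 NK markers were dim by the means of both models, but single CD4-SB tumours were high: Klrb1c reached 9.65 in replicate 3, and Ncr1 and Eomes reached 7.96 and 7.95 in replicate 6.

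Most chemokine and receptor genes had their higher mean in CD4-SB tumours. This held for 42 of the 48 members (87.5%), against 49.3% of all genes, and the median difference was -0.51 against 0.00. Of the members, 2 were called higher in Vav-SB (4.17%, beside 7.28% of all genes called in that direction) and 7 higher in CD4-SB (14.6%, beside 7.18%). With array weights the count higher in CD4-SB was 14, beside 9.87% of all genes in that direction. Leaving out 1 tumour gave 12 without CD4-SB replicate 4, 11 without CD4-SB replicate 7 and 6 to 9 without any other tumour. The share of all genes called in those fits is not given here. Without adjustment, 24 of the 48 members had limma p under 0.05, beside 4396 of the 15803 genes. In 0 of the members were the 7 and 7 tumours fully apart, beside 4.04% of all genes (2.51% with Vav-SB above and 1.53% with CD4-SB above). The spread within CD4-SB was wide, with a median SD of 0.67 over the members against 0.33 in Vav-SB, and 0.26 against 0.19 over all genes. The SD was larger in CD4-SB for 72.9% of the members and for 73.5% of all genes.

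**Figure D1:**
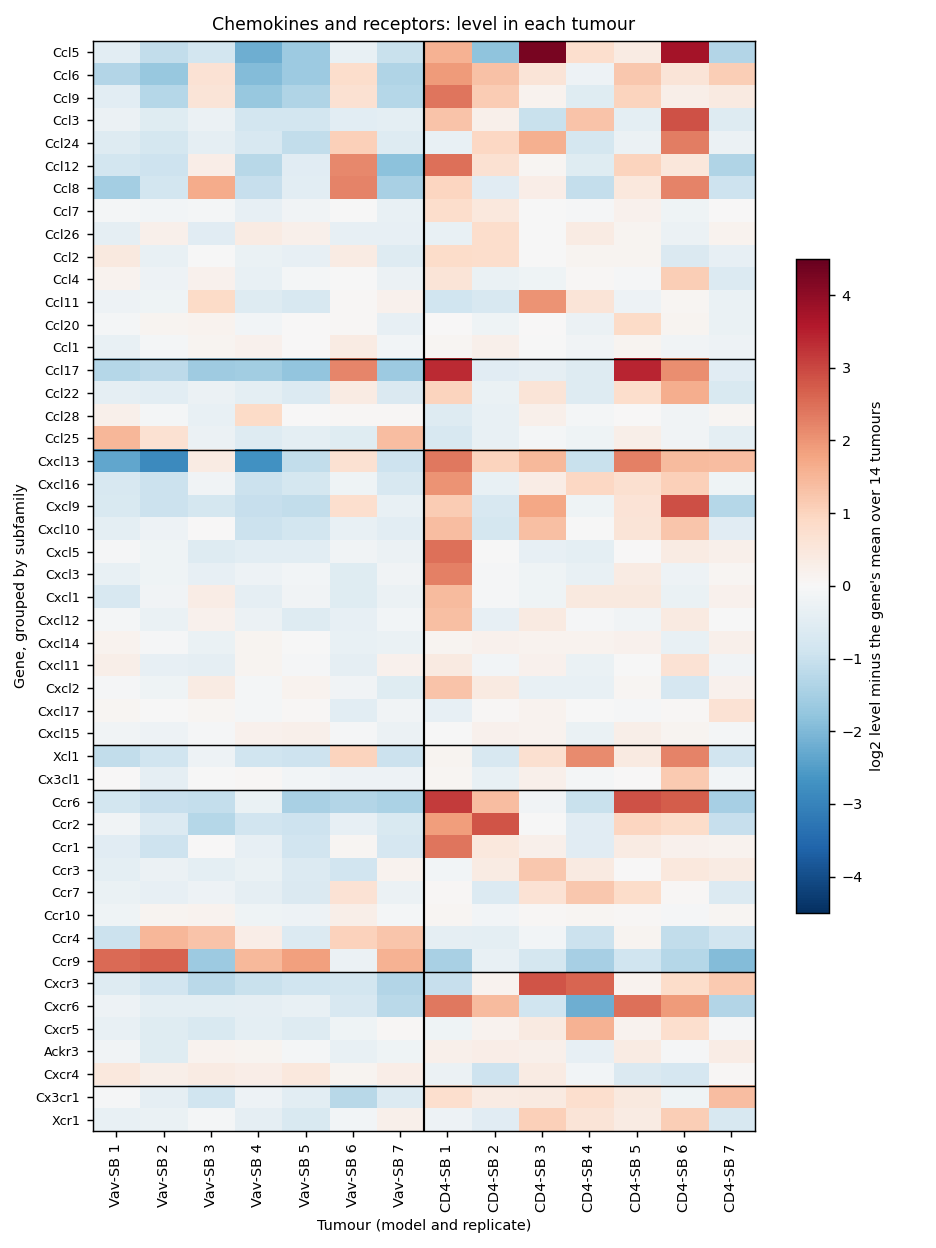
Heat map of the 48 members (rows, grouped by subfamily) in the 14 tumours (columns), with colour for the log2 level minus the gene's mean over all tumours. CD4-SB replicate 1 was the highest of the 14 tumours for 15 members and CD4-SB replicate 6 for 10.

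**Figure D2:**
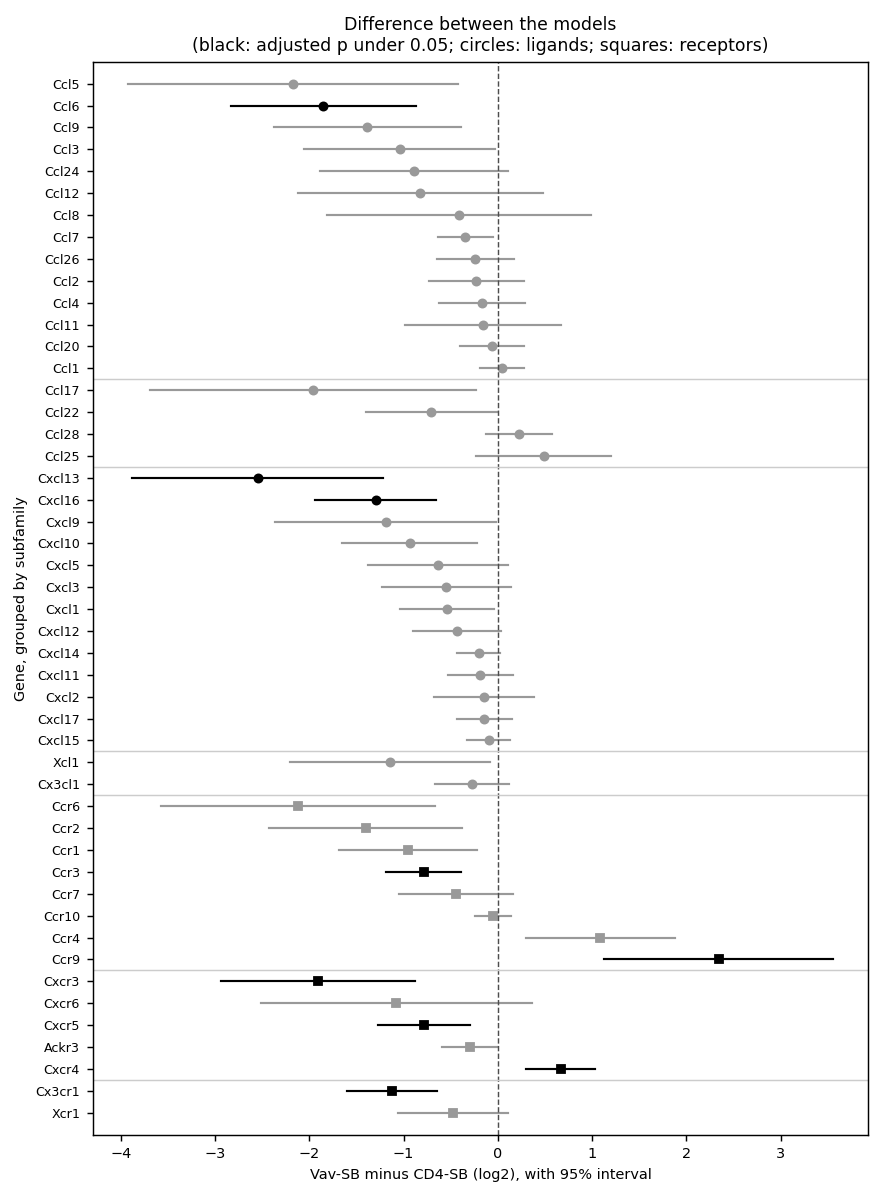
Vav-SB minus CD4-SB difference of each member on the log2 scale, with 95% intervals; circles are ligands, squares are receptors, and black marks the 9 members called by limma. Most points lie left of 0, Ccr9 and Cxcr4 are the black points to its right, and the lowest is Cxcl13 at -2.55.

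Among the 14 CC ligands of inflammation, 1 was called, and 13 had the higher mean in CD4-SB. Ccl6, a ligand made by myeloid cells, reached 7.96, 8.54 and 10.69 (lowest, median and highest) in Vav-SB and 9.67, 11.02 and 11.83 in CD4-SB. Vav-SB replicates 3 and 6 were within the CD4-SB range, and the other 5 Vav-SB tumours lay below every CD4-SB tumour. The gene was 3.61-fold lower in Vav-SB (difference -1.85 ± 0.46, SE, adjusted p = 0.015), and all 5 of its probe sets lay on that side. Ccl9, its neighbour on chromosome 11 and also a myeloid ligand, reached 6.95, 7.37 and 9.33 in Vav-SB and 8.10, 9.06 and 11.07 in CD4-SB. Its difference of -1.39 missed the threshold (adjusted p = 0.0603), with the same Vav-SB tumours, replicates 3 and 6, as the highest of their model.

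Ccl5, made by activated T and NK cells and macrophages, showed the widest spread. Its levels were 5.48, 6.66 and 7.32 in Vav-SB and 5.86, 8.42 and 11.94 in CD4-SB. CD4-SB replicates 3 and 6 were far above the rest at 11.94 and 11.43, whereas CD4-SB replicates 2 and 7 lay within the Vav-SB range, and the difference of -2.17 was not called (adjusted p = 0.0936). Those CD4-SB tumours, replicates 3 and 6, also had the highest mean NK marker levels, at 7.19 and 7.34. The other 12 tumours were at 5.37 to 6.30. In replicate 3 that mean rested on Klrb1c at 9.65. Its Ncr1, Klrd1 and Eomes, at 5.82, 6.54 and 6.77, were each exceeded in another CD4-SB tumour. The part of NK cells in Ccl5 was not tested. Ccl3, a ligand of Ccr1, had medians of 6.39 in Vav-SB and 7.08 in CD4-SB, with CD4-SB replicate 6 highest at 9.72, and was not called (adjusted p = 0.167). Its neighbour Ccl4, a ligand for T cells and monocytes, was dim, with a difference of -0.17 (adjusted p = 0.671). Ccl8 and Ccl12, ligands for monocytes, were high in some tumours of both models. Ccl8 reached 9.19 and 9.72 in Vav-SB replicates 3 and 6 and 9.73 in CD4-SB replicate 6, and Ccl12 reached 10.12 in Vav-SB replicate 6 and 10.44 in CD4-SB replicate 1. The adjusted p was 0.751 for Ccl8 and 0.428 for Ccl12.

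None of the 4 measured CC ligands of lymphoid tissue was called; at unadjusted p under 0.05 there were 2. Ccl17, made by dendritic cells and bound by Ccr4, reached 6.39, 6.61 and 10.37 in Vav-SB and 7.59, 7.77 and 11.61 in CD4-SB. The values fell into high and low tumours within both models: CD4-SB replicates 1, 5 and 6 and Vav-SB replicate 6 were at 10.26 or above, and every other tumour was at 7.77 or below. The difference of -1.96 was not called over all tumours (adjusted p = 0.125). Of the 14 fits that each left out 1 tumour, 1 called it, the fit without Vav-SB replicate 6 (-2.49, adjusted p = 0.0346). In the others the adjusted p reached 0.23. Ccl22, the other Ccr4 ligand, gave -0.71 (adjusted p = 0.173), again with Vav-SB replicate 6 the highest of its model. Ccl25, the ligand of Ccr9 that thymic epithelium makes, had medians of 8.15 in Vav-SB and 8.24 in CD4-SB. Vav-SB replicates 1, 2 and 7 were the highest of all tumours at 9.92, 9.13 and 9.80, and the difference of 0.48 was not called (adjusted p = 0.388).

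The 13 CXC ligands all had the higher mean in CD4-SB, and 2 of them were called. Cxcl13, which draws B cells through Cxcr5, showed the largest difference of any member. It reached 6.13, 7.91 and 9.69 in Vav-SB and 8.02, 10.43 and 11.37 in CD4-SB. Vav-SB replicates 3, 6 and 7 were at 9.38, 9.69 and 8.06, above CD4-SB replicate 4 at 8.02, and the other CD4-SB tumours were at 10.01 or above, higher than all Vav-SB tumours. The gene was 5.86-fold lower in Vav-SB (difference -2.55, 95% interval -3.88 to -1.22, adjusted p = 0.0138). Of its 5 probe sets, 1 barely differed (-0.03), and the lowest difference was -3.76.

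Cxcl16, a membrane-bound ligand of Cxcr6, was 2.46-fold lower in Vav-SB. It reached 7.25, 7.49 and 8.05 in Vav-SB and 7.89, 8.94 and 10.23 in CD4-SB. CD4-SB replicates 2 and 7 overlapped the upper Vav-SB tumours, and the other 5 lay above all of them. The difference was -1.30 ± 0.30 (SE, adjusted p = 0.0104), with all 6 probe sets on that side. Cxcl9 and Cxcl10, neighbours on chromosome 5 and interferon-induced ligands of Cxcr3, were not called, with differences of -1.19 and -0.93 (adjusted p = 0.172 and 0.0777). Both were high in CD4-SB replicates 1, 3, 5 and 6, and Cxcl9 peaked at 10.45 in replicate 6. Cxcl12, the stromal ligand of Cxcr4, gave -0.44 (adjusted p = 0.216), with CD4-SB replicate 1 highest at 8.19. Cxcl1, Cxcl3 and Cxcl5, ligands that draw neutrophils, were raised in 1 tumour, CD4-SB replicate 1, at 8.20, 8.27 and 7.86, and none of them was called.

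Of the remaining ligands, Xcl1, made by T and NK cells and bound by the dendritic cell receptor Xcr1, reached 7.03, 7.23 and 9.12 in Vav-SB and 7.25, 8.55 and 10.35 in CD4-SB. CD4-SB replicates 4 and 6 were highest at 10.26 and 10.35, and the difference of -1.14 was not called (adjusted p = 0.146). Cx3cl1, the membrane-bound ligand of Cx3cr1, gave -0.27 (adjusted p = 0.372), with medians of 6.66 and 6.83. The ligands not described here were not called, and their adjusted p lay between 0.108 for Ccl7 and 0.847 for Ccl1.

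Ccr9, the receptor that guides progenitors and thymocytes to Ccl25, was the member with the largest rise in Vav-SB. It reached 6.27, 9.48 and 10.56 in Vav-SB and 5.95, 6.63 and 7.56 in CD4-SB. In Vav-SB 5 tumours lay at 9.37 or above, replicate 6 was just above the CD4-SB range at 7.63, and replicate 3 lay inside it at 6.27. The gene was 5.08-fold higher in Vav-SB (difference 2.34, 95% interval 1.13 to 3.56, adjusted p = 0.0134), with all 5 probe sets on that side, from 1.33 to 3.18. Leaving out any single tumour gave an adjusted p between 0.000698 and 0.0319. The low Vav-SB tumours, replicates 3 and 6, were those with high Ccl6 and Cxcl13. Their host cell marker levels were 7.86 and 7.59, and Vav-SB replicate 1, with Ccr9 at 10.46, had a marker level of 7.58.

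**Figure D3:**
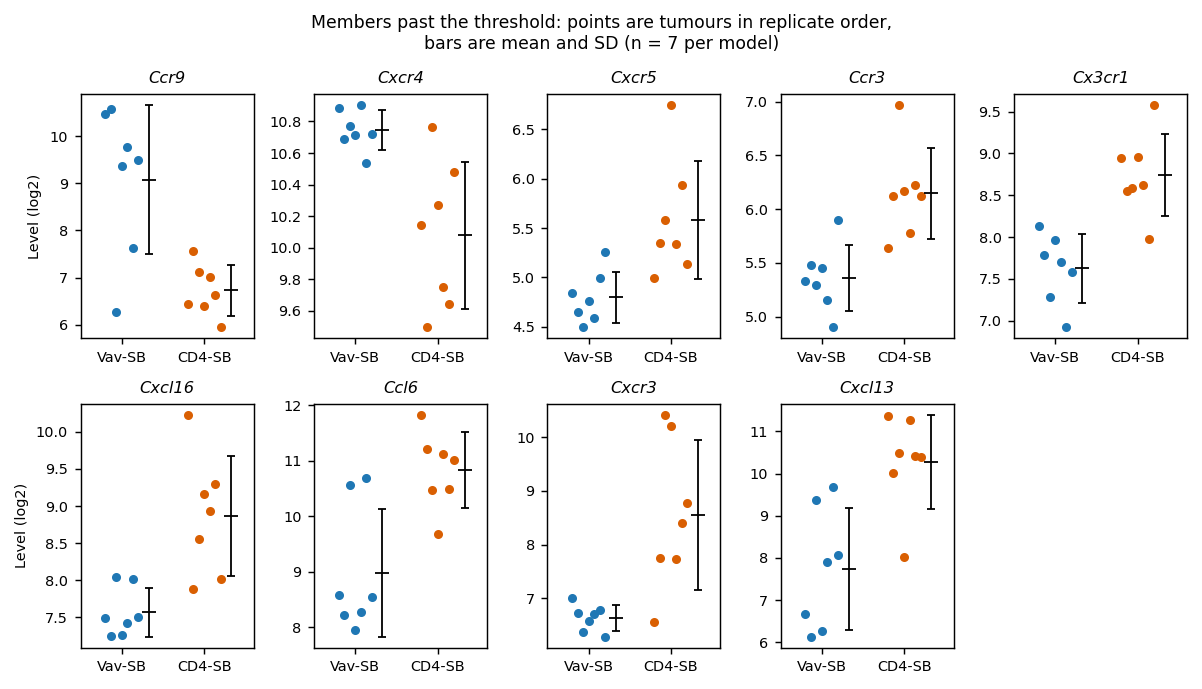
Log2 level of the 9 called members in each tumour, 1 panel per gene with its own axis; points are tumours in replicate order and bars are mean and SD, 7 tumours per model. Ccr9 and Cxcr4 are higher in Vav-SB, the other 7 are higher in CD4-SB, and every panel has at least 1 tumour inside the other model's range.

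Of the other CC receptors, 1 was called. Ccr3, a receptor of eosinophils and mast cells, was dim at 4.90, 5.33 and 5.90 in Vav-SB and 5.63, 6.13 and 6.96 in CD4-SB. The ranges overlapped by CD4-SB replicates 1 and 5 and Vav-SB replicate 7, and the 1.72-fold difference (adjusted p = 0.0116) concerns values within the range of the olfactory genes.

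Ccr6, a receptor of Ccl20 found on some T cells and on B cells, was next to the threshold. It reached 5.32, 5.71 and 6.48 in Vav-SB and 5.27, 8.15 and 9.92 in CD4-SB. CD4-SB replicates 1, 2, 5 and 6 were at 8.15 or above, while replicates 3, 4 and 7 lay at 6.60 or below, close to the Vav-SB tumours. The difference was -2.12 ± 0.68 (SE, adjusted p = 0.0501), and 8 of the 24 alternative settings called it. Its ligand Ccl20 was dim, with a difference of -0.07 (adjusted p = 0.834).

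Ccr2, the receptor for monocyte ligands that some T cells also carry, followed nearly the same tumours. It reached 6.42, 7.03 and 7.58 in Vav-SB and 6.68, 8.54 and 10.56 in CD4-SB, with CD4-SB replicates 2 and 1 highest and replicates 4 and 7 inside the Vav-SB range. The difference of -1.40 was not called over all tumours (adjusted p = 0.0655). Of the 14 fits that each left out 1 tumour, 2 called it. It was -1.69 without CD4-SB replicate 7 and -1.60 without CD4-SB replicate 4 (adjusted p = 0.0178 and 0.0386). In the others the adjusted p reached 0.126.

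Ccr4, a receptor of Ccl17 and Ccl22, was measured by 1 dim probe set. It reached 4.19, 6.17 and 6.65 in Vav-SB and 4.04, 4.71 and 5.26 in CD4-SB, with Vav-SB replicates 1 and 5 down among the CD4-SB values. The difference of 1.09 was not called (adjusted p = 0.065). Ccr7, which binds Ccl19 and Ccl21, gave -0.44 (adjusted p = 0.342), with CD4-SB replicate 4 highest at 9.02 and Vav-SB replicate 6 highest of its model at 8.46. Ccr1, a myeloid receptor, was dim apart from CD4-SB replicate 1 at 8.15 (difference -0.95, adjusted p = 0.0793), and Ccr10 gave an adjusted p of 0.77.

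Cxcr4, the receptor of Cxcl12, was measured at a high level in every tumour. It reached 10.54, 10.72 and 10.90 in Vav-SB and 9.50, 10.15 and 10.76 in CD4-SB. The Vav-SB tumours lay close together, with an SD of 0.12, and 6 of the 7 CD4-SB tumours were below all of them; CD4-SB replicate 3 was inside their range. The gene was 1.59-fold higher in Vav-SB (difference 0.67, 95% interval 0.30 to 1.03, adjusted p = 0.0186). Ackr3, listed on the array as Cxcr7, binds Cxcl12 without the usual G protein signal and gave -0.30 (adjusted p = 0.167).

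Cxcr3, the receptor of Cxcl9 and Cxcl10 on activated T cells, was low in all Vav-SB tumours. It reached 6.29, 6.71 and 7.00 in Vav-SB and 6.55, 8.40 and 10.42 in CD4-SB. CD4-SB replicates 3 and 4 were highest at 10.42 and 10.20, and CD4-SB replicate 1 alone lay inside the Vav-SB range. The gene was 3.76-fold lower in Vav-SB (difference -1.91 ± 0.48, SE, adjusted p = 0.0166). Cxcr5, the receptor of Cxcl13, was dim at 4.49, 4.76 and 5.25 in Vav-SB and 5.00, 5.35 and 6.74 in CD4-SB. Its 1.72-fold difference (adjusted p = 0.0316) lost its call in 6 of 14 fits that each left out 1 tumour, where the adjusted p reached 0.0662 (without Vav-SB replicate 1, 2, 3, 4 or 5, or CD4-SB replicate 6).

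Cxcr6, the receptor of Cxcl16 on tissue T cells and NKT cells, separated the CD4-SB tumours instead of the models. It reached 7.53, 8.30 and 8.49 in Vav-SB and 6.55, 10.15 and 11.20 in CD4-SB. CD4-SB replicates 1, 2, 5 and 6 were above every Vav-SB tumour, and CD4-SB replicates 4 and 7 were below every one, with replicate 3 among them. The difference of -1.08 was not called (adjusted p = 0.331). The same 4 CD4-SB tumours were the highest of all 14 for Ccr6 and for Ccr2, whereas replicates 3 and 4 were the highest for Cxcr3. Replicates 5, 6 and 7, which share a title number, were not alike: Ccr6 was at 9.65, 9.50 and 5.27 in them, and Cxcr6 at 11.20, 10.66 and 7.40.

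**Figure D4:**
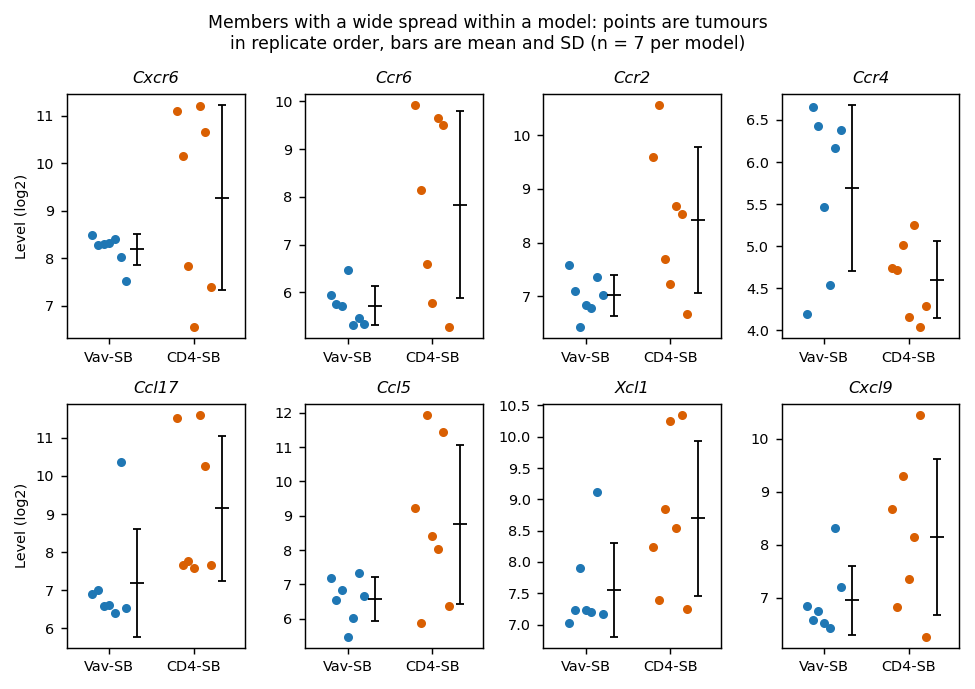
Log2 level of 8 members in each tumour, selected after their values were seen for a wide spread within a model; points are tumours in replicate order and bars are mean and SD, 7 tumours per model. Cxcr6 and Ccr6 split the CD4-SB tumours into 4 high and 3 low, and Ccl17 is high in 3 CD4-SB tumours and in Vav-SB replicate 6.

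Cx3cr1, the receptor of Cx3cl1 on monocytes, macrophages and some T cells, had the smallest adjusted p of the members. It reached 6.92, 7.71 and 8.14 in Vav-SB and 7.98, 8.62 and 9.57 in CD4-SB. Of the CD4-SB tumours 6 were above every Vav-SB tumour, and CD4-SB replicate 6 was inside their range. The gene was 2.17-fold lower in Vav-SB (difference -1.12, 95% interval -1.60 to -0.64, adjusted p = 0.00453). With the median over its 3 probe sets in place of the mean the difference was -0.87 and missed the threshold (adjusted p = 0.0642). Xcr1, the receptor of Xcl1 on cross-presenting dendritic cells, gave -0.48 (adjusted p = 0.281).

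Set beside each other, receptors and ligands of a pair were rarely both called. Ccr9 and Cxcr4 were higher in Vav-SB while the differences of their ligands Ccl25 and Cxcl12 were 0.48 and -0.44, neither called. Cxcl13 and Cxcr5 were both called higher in CD4-SB, though the receptor was dim. For Cxcl16 the ligand was called and its receptor Cxcr6 was not, and for Cx3cr1 and Cxcr3 the receptor was called and the ligands were not.

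Because host cell markers averaged higher in CD4-SB, the members were also fitted with the mean marker level of each tumour as a covariate. Under this fit 0 members were called higher in Vav-SB (beside 2.48% of all genes), and 2 higher in CD4-SB (beside 1.21%), namely Cx3cr1 and the dim ligand Ccl26. The mean was then higher in CD4-SB for 29 of 48 members (60.4%) against 59.5% of all genes, and the median difference was -0.12 against -0.06. The difference of Cx3cr1 was -1.38 ± 0.31 (SE, adjusted p = 0.0232), larger than without the covariate. Cxcr4 and Cxcr3 kept differences of 0.81 and -2.08 without a call (adjusted p = 0.0811 and 0.114). Ccr9 went to 1.47 (adjusted p = 0.297), Cxcl13 to -1.34 (0.353), Ccl6 to -1.09 (0.331) and Cxcl16 to -0.42 (0.412). The covariate differs between the models, so its part and the part of the model cannot be told apart for these genes.

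**Figure D5:**
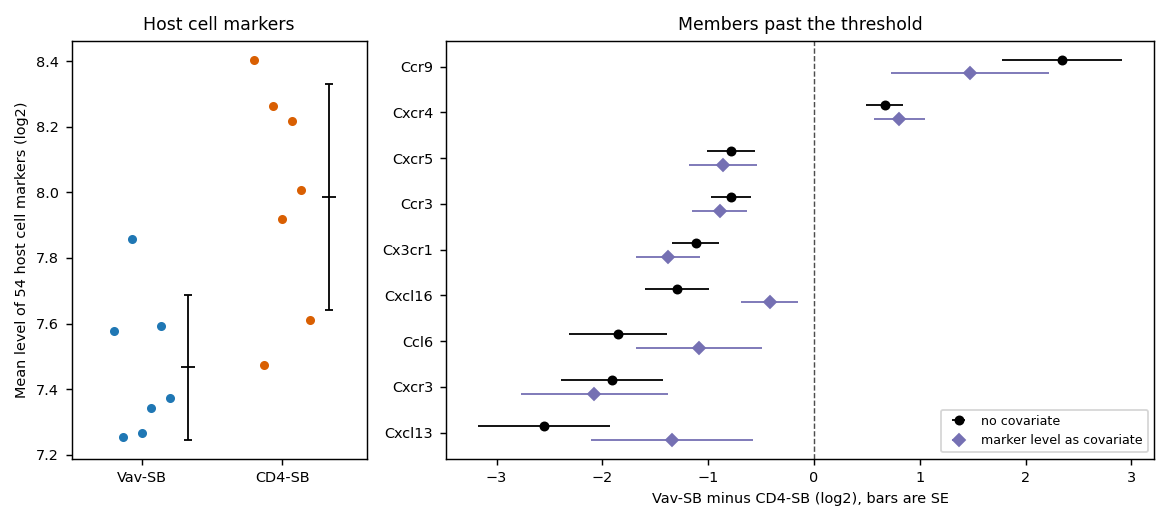
Left, mean log2 level of 54 host cell markers in each tumour, with mean and SD of 7 tumours per model; right, the Vav-SB minus CD4-SB difference of the 9 called members without and with that level as a covariate, bars are SE. Cxcl16, Cxcl13 and Ccr9 move toward 0 with the covariate, whereas Cxcr4, Cx3cr1 and Cxcr3 do not.

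With the first listed tumour kept for each title number, CD4-SB replicates 1, 3, 4 and 5 were set against all 7 Vav-SB tumours. In this fit 0 members were called higher in Vav-SB (beside 5.87% of all genes) and 8 were called in the other direction (beside 7.21%). The difference of Ccr9 was then 2.33 (adjusted p = 0.0515) and that of Cxcr4 was 0.51 (adjusted p = 0.0525), just outside the threshold. Cx3cr1, Cxcl16 and Cxcr3 were called again, with differences of -1.15, -1.65 and -2.09 (adjusted p = 0.00472, 0.0035 and 0.043). Ccl5, Ccr2, Ccr7, Cxcl9 and Cxcl10 were called in this smaller set, and Ccl6, Cxcl13, Ccr3 and Cxcr5 were not (adjusted p = 0.0673, 0.0591, 0.0549 and 0.0573). Keeping other tumours of a title number was not tried, so these calls hold for this choice only.

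A separate list held genes that carry, dampen or shape chemokine signals, related receptors, and decoys and ligands outside the rule. Of its 50 genes 44 were measured. Of these 3 were called with higher levels in Vav-SB (6.82%, beside 7.28% of all genes) and 10 with higher levels in the CD4-SB model (22.7%, beside 7.18%). Those 10 were 5 of 13 arrestins, kinases and RGS genes and 1 of 8 genes of the migration machinery. The others were 2 of 4 related receptors and 2 of 7 decoys and ligands outside the rule. Dpp4, a peptidase that trims the ends of several chemokines, was 4.41-fold higher in Vav-SB, at 9.84 ± 0.55 against 7.70 ± 1.16 (SD, n = 7 each, adjusted p = 0.00538). Rgs10 and Pik3cg, a regulator and an effector of G protein signals, were 1.53-fold and 1.41-fold higher in Vav-SB (adjusted p = 0.00425 and 0.00763). The arrestins Arrb1 and Arrb2, which shut off and internalise receptors, exceeded their Vav-SB levels 2.52-fold and 1.84-fold in CD4-SB (adjusted p = 0.00618 and 0.00183). Rgs1, which dampens G protein signals in lymphocytes, was 4.27-fold higher in CD4-SB (adjusted p = 0.00746). Rap1b, a small GTPase of integrin activation, was 1.49-fold higher in CD4-SB, with all 7 tumours above every Vav-SB tumour (adjusted p = 0.00118), and Cklf, a chemokine-like factor, was 1.44-fold higher there (adjusted p = 0.0117). With the host cell marker covariate Dpp4, Rgs10 and Rap1b were still called (adjusted p = 0.041, 0.0296 and 0.0301), and the other 10 called genes of the list were not; Pik3cg and Arrb2 were nearest (adjusted p = 0.0523 and 0.059), and Cklf, Arrb1 and Rgs1 were at 0.202, 0.268 and 0.275.

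Many members are neighbours in the genome: 29 lie in 7 clusters in which consecutive members are at most 5 protein-coding genes apart. In 5 of the 7 clusters every member had its higher mean in CD4-SB, the direction of 42 of the 48 members. On chromosome 9, Ccr9 (2.34) is followed by Cxcr6 (-1.08), Xcr1 (-0.48), Ccr1 (-0.95), Ccr3 (-0.79) and Ccr2 (-1.40), of which Ccr9 and Ccr3 were called in opposite directions. On chromosome 11, Ccl6 was called beside Ccl5, Ccl9, Ccl3 and Ccl4, which were not, and the cluster of Ccl2, Ccl7, Ccl11, Ccl12, Ccl8 and Ccl1 held 0 calls by limma and 1 gene, Ccl7, at unadjusted p under 0.05.

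Promoters of 4 called members are printed to show the stretch before and around the start of genes that moved in each direction: Ccr9 and Cxcr4, higher in Vav-SB, and Cx3cr1 and Cxcl13, higher in CD4-SB. They come from RefSeq on GRCm38.p6 and hold the 300 bases around each start, most of them before it, 5′ to 3′ on the gene's strand. Capitals mark matches, on either strand, of a kappa B type motif: GGG, then 5 bases of any kind, then CC. The Ccr9 promoter is chr9:123766961-123767260 (+ strand), Cxcr4 chr1:128592250-128592549 (- strand), Cx3cr1 chr9:120068247-120068546 (- strand) and Cxcl13 chr5:95956689-95956988 (+ strand).
Ccr9: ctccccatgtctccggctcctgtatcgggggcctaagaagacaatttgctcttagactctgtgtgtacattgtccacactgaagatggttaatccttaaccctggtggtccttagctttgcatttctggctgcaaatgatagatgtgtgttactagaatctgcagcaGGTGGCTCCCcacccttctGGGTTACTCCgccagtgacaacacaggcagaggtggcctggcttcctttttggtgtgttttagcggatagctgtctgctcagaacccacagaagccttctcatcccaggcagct
Cxcr4: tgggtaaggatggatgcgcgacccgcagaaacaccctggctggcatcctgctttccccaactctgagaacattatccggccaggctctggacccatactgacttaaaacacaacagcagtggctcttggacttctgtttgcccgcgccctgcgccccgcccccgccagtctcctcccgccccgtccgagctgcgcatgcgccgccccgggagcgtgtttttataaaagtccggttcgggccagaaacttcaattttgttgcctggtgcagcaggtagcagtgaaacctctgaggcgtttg
Cx3cr1: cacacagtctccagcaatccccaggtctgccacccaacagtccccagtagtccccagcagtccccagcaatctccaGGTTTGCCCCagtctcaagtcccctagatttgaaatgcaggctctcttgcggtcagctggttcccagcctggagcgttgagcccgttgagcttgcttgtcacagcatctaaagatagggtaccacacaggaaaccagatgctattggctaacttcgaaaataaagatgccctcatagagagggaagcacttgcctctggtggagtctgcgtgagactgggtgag
Cxcl13: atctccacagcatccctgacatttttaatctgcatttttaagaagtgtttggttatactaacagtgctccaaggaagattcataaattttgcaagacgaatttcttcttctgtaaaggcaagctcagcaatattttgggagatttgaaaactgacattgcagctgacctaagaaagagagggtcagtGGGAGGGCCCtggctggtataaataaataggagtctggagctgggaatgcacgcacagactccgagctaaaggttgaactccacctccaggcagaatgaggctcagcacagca

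The Ccr9 promoter held 2 matches, Cx3cr1 and Cxcl13 held 1 each, and Cxcr4 held 0. Over the 36 promoters found for 34 of the 48 members, 18 held the motif (50%), against 50.8% of 32851 promoters of the same length. The interferon response type motif (GAAA, 2 bases of any kind, GAAA) was in 2 member promoters (5.56%, against 3.44%), and the STAT type motif (TTC, 3 bases of any kind, GAA) in 3 (8.33%, against 8.30%). A match in these letters is a description, not a binding site.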

How the data were processed

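RNA of 14 tumours was measured on mouse exon arrays (mm9 annotation, per the labels). The authors deposited 1 value per probe set and tumour, read here as log2; the submitters' processing notes name RMA and Partek, and the sources used here state neither the log base nor the background step. Small RNA amounts were amplified before labelling, per the labels' protocols, which can add spread. Column medians were 7.46 to 7.50, so a change in total RNA cannot be seen. Of 194293 probe sets, 179496 carry 1 gene symbol and were averaged per gene; 2014 symbols were replaced by their current form through RefSeq. Tumours correlated at 0.877 to 0.968 over all probe sets, and 0 pairs were identical. Differences were fitted with limma 3.58.1 in R 4.3.3 on all genes, with Benjamini-Hochberg adjustment and a threshold of 0.05. On simulated data for this comparison over 15803 genes, 38% of genes changed by 0.5 (log2) were recovered, 90% at 1, and 100% at 2 and 4. Among unchanged genes 13 were called. The changed genes were drawn from all genes, with the same spread in both models. The members spread more widely and unequally (median SD 0.67 in CD4-SB and 0.33 in Vav-SB), so these rates do not carry over to them. Ccl5 and Ccr6, at -2.17 and -2.12, were not called. The number of arrays limits the precision.

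Members and lists were chosen with earlier results of these data known. Genes named are those past the threshold, members of prior interest in the thymus or T-cell tumours, members with a tumour apart from its model, and at most 8 called signalling genes by smallest adjusted p; Ccl8, Ccl9, Ccl12, Ackr3 and Xcr1 are described outside this rule, chosen after their values were seen. Ccr8, Ccl19 and Ccl21a were not analysed here. Alternatives were another probe set summary, quantile normalization, filters on dim genes and probe sets, limma-trend, array weights, title numbers, host cell and Y-linked covariates, platform symbols, and leaving out each tumour.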

Additional observations from a re-analysis of the deposited data

Results flagged for a closer look

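In 14 of 96 groups of 7 tumours (48 members in 2 models) 1 tumour stood apart from the other 6 by Dixon's test of the gap to the nearest against the whole range; chance alone flags about 1 in 20 groups. Of these, 6 were Vav-SB replicate 6, in which Ccl17 was at 10.37, Ccl22 at 7.39, Ccl24 at 7.76, Ccr7 at 8.46, Cxcl9 at 8.32 and Xcl1 at 9.12, each the highest of its model. CD4-SB replicate 1 was the highest of its model for Ccr1 at 8.15, Cxcl1 at 8.20, Cxcl3 at 8.27 and Cxcl5 at 7.86. CD4-SB replicate 5 was highest for Ccl20 at 7.50 and CD4-SB replicate 6 for Cx3cl1 at 7.98. CD4-SB replicate 4 was lowest for Cxcl13 at 8.02, and CD4-SB replicate 6 lowest for Cxcl14 at 5.91.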

How the results depend on the processing

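Members called higher in Vav-SB numbered 2, and 7 were called higher in CD4-SB. With 1 tumour per title number 0 were called higher in Vav-SB, and with the host cell marker covariate 0 and 2. Array weights gave 14 higher in CD4-SB, beside 9.87% of all genes. Leaving out 1 tumour gave 2 to 3 higher in Vav-SB and 6 to 12 higher in CD4-SB, without the share of all genes beside them. The cause of these shifts was not tested. Over all alternatives run, the adjusted p of Ccr9 ranged from 0.000698 to 0.297, of Cxcr4 from 0.00336 to 0.0811 and of Cx3cr1 from 0.00205 to 0.0642. No called member changed direction. Uncalled members did, 13 of them with the host covariate: Ccl20 to 0.016 with the median over probe sets, 0.087 with bright probe sets, 0.22 with the host covariate and from -0.12 to 0.071 when 1 tumour was left out (highest without CD4-SB replicate 5), and, with the host covariate, Ccl22 to 0.055, Ccl4 to 0.26, Ccr7 to 0.12, Cxcl10 to 0.11, Cxcl12 to 0.12, Cxcl9 to 0.0082, Ccl8 to 0.97, Ccl12 to 0.46, Ccl11 to 0.43, Cxcl2 to 0.056, Ccr10 to 0.044 and Xcr1 to 0.0012. No paired analysis was possible because replicate numbers only name tumours within a model and the labels pair none. Signal near background limits the 14 dim members.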
